A study of Mus musculus with 24 samples.

Results

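The transcripts described here encode 9 proteins that write, copy or read DNA methylation or that hold the chromatin of imprinted genes: *Mbd1*, *Mbd2* and *Mbd3*, *Dnmt1* with its partner *Uhrf1*, *Dnmt3a*, the corepressor *Trim28*, the histone methyltransferase *Setdb1*, and *Ctcf*. They were taken by gene symbol from a table of 49452 genes, and all 9 were found. The table holds 24 RNA-Seq libraries in 8 groups of 3, from primary C57BL/6 stromal vascular fraction (SVF) cells of brown adipose tissue (BAT) or epididymal adipose tissue (vWAT). The cells carried either a non-targeting control siRNA (siCtrl) or an siRNA against *H19* (siH19), and were collected before induction (day 0, d0) or at day 3 of differentiation (d3). Both depots were induced with a cocktail containing insulin and IBMX, BAT cells also received indomethacin and triiodothyronine, and white cells were kept on rosiglitazone afterwards. By the study's methods, the white induction medium held dexamethasone and rosiglitazone as well, and BAT cells were kept on triiodothyronine afterwards. The depots also carry different library series numbers, so depot, medium and library series cannot be told apart. SVF cultures are mixtures, and in such bulk samples fewer cells of a type and less RNA per cell cannot be told apart. The labels do not tie replicates to separate animals, so p-values measure the spread between these libraries, which may be technical.

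DNA methylation at CpG dinucleotides marks a parental allele of imprinted genes and is kept through cell division. Dnmt1 copies the pattern onto the new strand after replication, guided by Uhrf1, which recognises hemimethylated DNA, while Dnmt3a sets methylation on unmethylated DNA. Methyl-CpG binding proteins read the mark: Mbd1 binds methylated CpG and works with the histone H3 lysine 9 methyltransferase Setdb1, Mbd2 brings the NuRD deacetylase complex to methylated DNA, and Mbd3 is a NuRD subunit with little preference for methylated CpG. Trim28 (KAP1) is recruited by KRAB zinc finger proteins such as Zfp57 and keeps imprints together with Setdb1. Ctcf binds the unmethylated maternal copy of the control region between *Igf2* and *H19*, an imprinted lincRNA expressed from the maternal allele.

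On GRCm38, *Mbd3* lies at chr10:80392539-80399550 (minus), *Dnmt1* at chr9:20907209-20959888 (minus), *Uhrf1* at chr17:56303321-56323486 (plus) and *Dnmt3a* at chr12:3806007-3914443 (plus). *Trim28* is at chr7:12999114-13031035 (plus), *Setdb1* at chr3:95323525-95357202 (minus) and *Ctcf* at chr8:105636568-105682922 (plus). No annotated gene overlaps *Mbd1*, *Mbd2*, *Mbd3* or *Uhrf1*. On the opposite strand, *Zbtb45* lies within the annotated span of *Trim28*, *Cers2* overlaps the end of *Setdb1*, *Dnmt3aos* overlaps *Dnmt3a*, and *Agrp* lies within the span of *Ctcf*. Also on the opposite strand, *Gm5914* and *Gm5915* overlap *Ctcf*, and *Gm42578* and *Gm37500* overlap *Setdb1*. The labels name a strand-keeping library kit and the study's methods a kit without that word. Whether strand was used in counting is not given in the sources used here. The values of *Trim28*, *Setdb1*, *Dnmt3a* and *Ctcf* may therefore contain reads of their partners. The microRNA gene *Mir7081* lies within *Dnmt1* on the same strand.

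Promoter sequences from RefSeq (build GRCm38.p6, windows of 300 bases around a transcript start) were at hand for 7 of the 9 members. *Dnmt1*, *Uhrf1* and *Trim28* are shown because theirs were the 3 that held E2F-type letters. All 3 had lower mean levels at d3 than at d0 in all 4 pairs of groups, but so had *Dnmt3a* and *Ctcf*, whose windows held 0 matches. All 3 windows shown lie inside the annotated spans of their genes. The letters searched on both strands were TTTCGCGC, TTTGGCGC and TTCCCGCC; matches are in capitals and the rest in lower case. Each sequence is given 5′ to 3′ on the strand of the gene.
*Dnmt1* (minus strand, chr9:20952574-20952873): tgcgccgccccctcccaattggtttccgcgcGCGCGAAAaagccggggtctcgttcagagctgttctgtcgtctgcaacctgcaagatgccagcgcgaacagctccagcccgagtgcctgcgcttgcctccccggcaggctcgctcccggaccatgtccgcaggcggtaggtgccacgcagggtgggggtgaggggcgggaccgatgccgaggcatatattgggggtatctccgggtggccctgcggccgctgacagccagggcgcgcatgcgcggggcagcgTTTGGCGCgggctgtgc
*Uhrf1* (plus strand, chr17:56304063-56304362): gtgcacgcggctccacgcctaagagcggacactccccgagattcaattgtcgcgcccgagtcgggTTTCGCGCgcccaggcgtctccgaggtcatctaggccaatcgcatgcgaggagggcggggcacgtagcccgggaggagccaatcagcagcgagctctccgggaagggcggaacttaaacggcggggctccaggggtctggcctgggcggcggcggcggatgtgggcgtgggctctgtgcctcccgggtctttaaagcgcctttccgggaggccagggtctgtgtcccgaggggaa
*Trim28* (plus strand, chr7:13023902-13024201): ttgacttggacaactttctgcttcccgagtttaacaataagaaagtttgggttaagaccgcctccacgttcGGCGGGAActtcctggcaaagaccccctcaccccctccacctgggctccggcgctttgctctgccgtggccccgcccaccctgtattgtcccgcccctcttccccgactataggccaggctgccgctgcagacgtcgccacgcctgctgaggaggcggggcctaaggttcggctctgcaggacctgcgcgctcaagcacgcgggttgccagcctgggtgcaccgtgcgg
The *Dnmt1* window shown held TTTCGCGC on its reverse strand and TTTGGCGC on its forward strand. Other *Dnmt1* windows, including that at the annotated start of the gene, held 0 matches. The *Uhrf1* window held TTTCGCGC, and another *Uhrf1* start held TTCCCGCC. The *Trim28* window held TTCCCGCC on its reverse strand. Among all 32851 promoters of the table, 0.323% held TTTCGCGC, 0.514% held TTTGGCGC and 2.19% held TTCCCGCC on either strand. A match describes these letters only.

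The study's oligo list names an *H19* siRNA with the number that the labels carry, and its guide strand follows; whether it is the oligo used in these libraries was not settled. Capitals mark the 19 bases complementary to *H19*.
siH19#3 guide: UGGUGUUCAAGAAGGCUGGat
In GENCODE vM21 transcripts, 1 gene held the full complement of these bases, *H19*, and 0 members did.

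*H19* itself was measured first. In BAT at d0, FPKM (sequenced fragments corrected for transcript length and for the size of the library) was 108, 160 and 122 with siCtrl and 2.82, 5.20 and 5.05 with siH19. At d3 it was 99.7, 86.4 and 83.2 against 12.04, 12.2 and 16.9. In vWAT the siCtrl libraries lay at 12.3, 11.3 and 11.6 (d0) and 8.67, 8.19 and 8.90 (d3), and the siH19 libraries between 0.630 and 1.76 at d0 and between 0.290 and 0.966 at d3. The groups did not overlap in any of the 4 pairs, and remaining *H19* was 3.35% to 15.3% of siCtrl by FPKM. The files hold no counts, so depth is unknown. FPKM summed to between 710794 and 841456 per library, and correlations of log2 values between replicates ranged from 0.9744 to 0.9813. The adipocyte list (10 genes) rose from summed FPKM of 3242 to 3532 at d0 to between 41101 and 43017 at d3 in BAT siCtrl, and from 4423 to 4431 to between 21210 and 22246 in vWAT siCtrl. The brown adipocyte list reached 834 to 948 in BAT siCtrl at d3 against 158 to 177 in vWAT siCtrl, where *Ucp1* was listed at 0 in every library.

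All 9 members were above the filter of 1 FPKM in every library. Their replicate SD reached 29.2% of the mean (*Uhrf1*, vWAT siCtrl d0). The lowest value was 6.07 FPKM (*Setdb1*) and the highest 206 (*Trim28*). *Trim28*, *Mbd2* and *Mbd3* formed an upper tier, with medians over the 24 libraries of 128, 77.7 and 82.6 FPKM. *Ctcf* followed at 21.0, then *Mbd1* at 13.2, *Dnmt1* at 11.9, *Dnmt3a* at 11.7, *Uhrf1* at 9.50 and *Setdb1* at 7.16. The widest range belonged to *Trim28*, whose highest library was 3.24 times its lowest, then *Mbd1* at 2.99 times; *Setdb1* was the steadiest at 1.36 times. In BAT siCtrl at d0 the order by mean was *Trim28*, *Mbd2*, *Mbd3*, *Ctcf*, *Dnmt1*, *Uhrf1*, *Dnmt3a*, *Mbd1* and *Setdb1*, and only the neighbours *Dnmt1* and *Uhrf1* overlapped. At d3 in BAT siCtrl *Mbd3* led at 83.6, above *Trim28* at 69.9, with no overlap. In vWAT *Trim28* led in all 4 groups, and at d3 *Mbd1* stood above *Ctcf* with both siRNAs, without overlap. FPKM is per length of transcript, so these levels can be set side by side between genes.

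**Figure D1:**
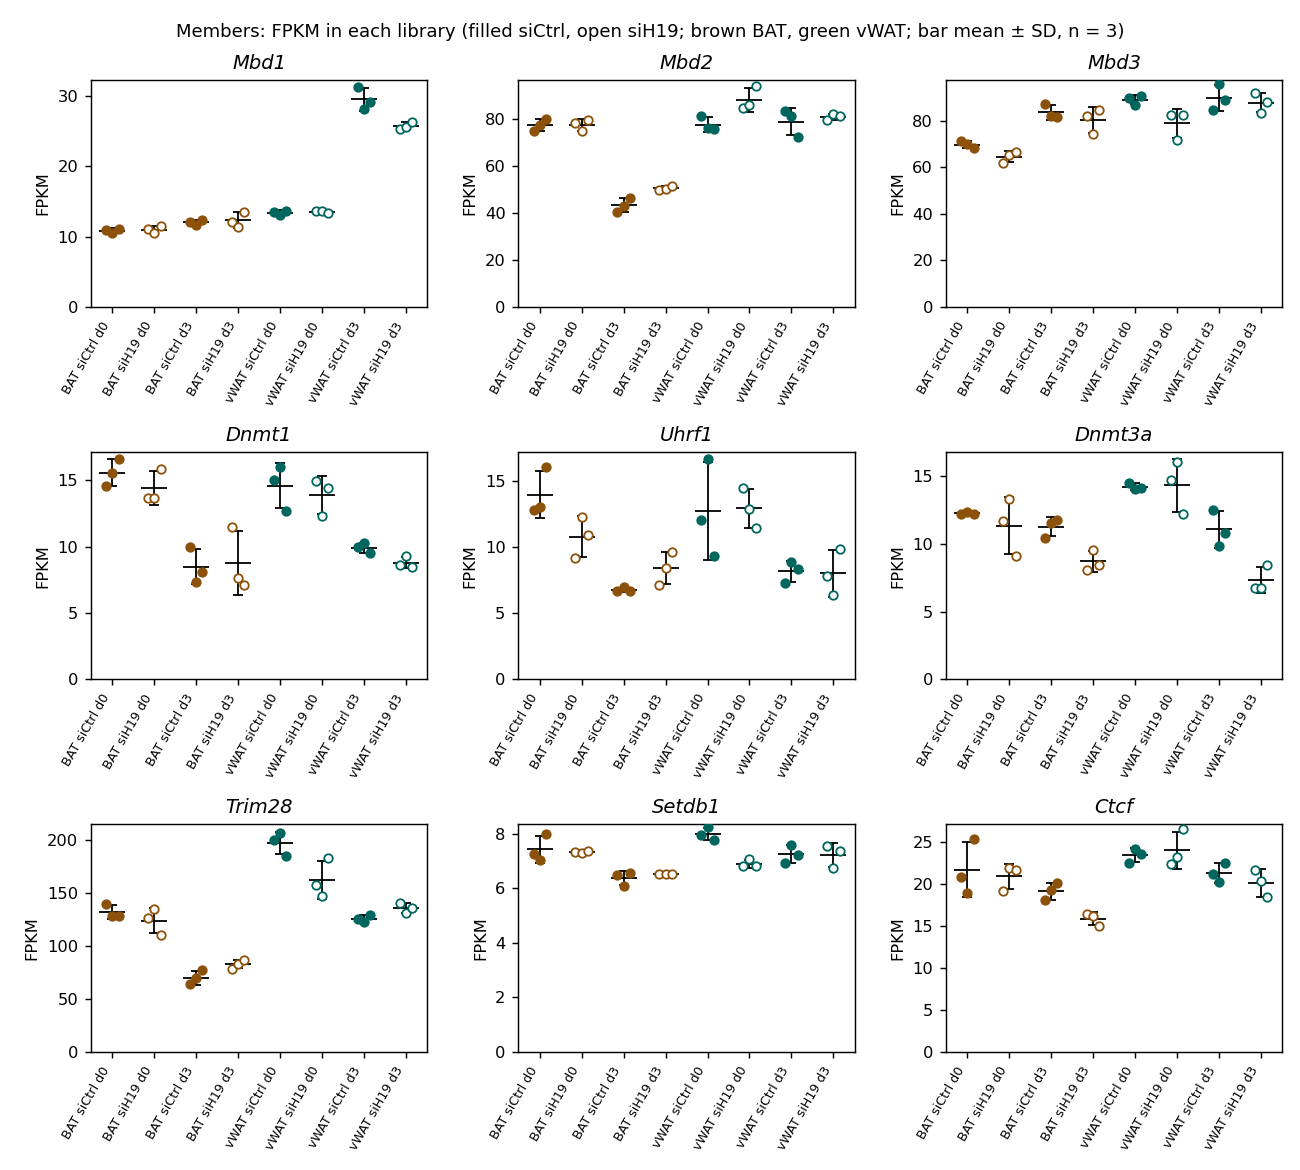
FPKM of the 9 members (1 panel each, axis from 0) in the 8 groups; points are libraries, filled for siCtrl and open for siH19, brown for BAT and green for vWAT, with the mean and SD of 3. *Mbd1* stands between 25.3 and 31.2 in the 6 vWAT d3 libraries and at 13.7 or less in the other 18, and *Mbd2* stands between 40.3 and 51.7 in the 6 BAT d3 libraries and at 72.2 or more in the rest.

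Whether loss of *H19* moved these genes was asked in each depot and day. A gene was called when limma's Benjamini-Hochberg adjusted p over all genes tested was under 0.05 and the change was at least 1.3-fold, on log2(FPKM + 1), a scale that understates changes of low genes. By that rule 0 of 9 members were called in BAT at d0, in BAT at d3, in vWAT at d0 and in vWAT at d3. Among all genes tested, 1.94%, 8.57%, 1.53% and 0.0305% were called in those comparisons. Libraries did not overlap for 2, 5, 4 and 4 members, against 26.7%, 37.2%, 24.5% and 16.2% of all genes. An unadjusted p under 0.05 was found for 2, 5, 4 and 4 members. The share of all genes at that unadjusted p is not given, so such counts, here and below, cannot be set against genes at large. The median log2 fold change of the members was -0.09, 0.03, 0.00 and -0.04, beside -0.03, 0.05, -0.03 and -0.01 over all genes.

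Among the methyl-CpG readers, *Mbd1* (chr18:74268272-74282685, plus strand) in BAT measured 10.9, 10.46 and 11.1 FPKM with siCtrl and 11.02, 10.5 and 11.5 with siH19 at d0. At d3 it was 12.1, 11.7 and 12.4 against 12.1, 11.4 and 13.6. The groups overlapped on both days, and the 95% confidence interval (CI) of the change ran from -0.13 to 0.17 (log2) at d0 and from -0.15 to 0.22 at d3. In vWAT at d3 *Mbd1* was 31.2, 28.1 and 29.0 with siCtrl and 25.3, 25.6 and 26.3 with siH19, without overlap. That change of -0.19 (log2, SE 0.053) had an adjusted p of 0.37. *Mbd2* (chr18:70568189-70626131, plus strand) in BAT at d3 was 40.3, 43.2 and 46.2 with siCtrl against 49.7, 50.2 and 51.7 with siH19, a log2 change of 0.22 (SE 0.059, adjusted p = 0.0497) that stayed under 1.3-fold. In the other comparisons the *Mbd2* difference was 0.00 (BAT d0), 0.18 (vWAT d0, adjusted p = 0.179, without overlap) and 0.04 (vWAT d3). *Mbd3* had differences from -0.17 to -0.03 (log2) in the 4 comparisons and no adjusted p under 0.05.

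*Dnmt3a*, the de novo methyltransferase, had the most negative siH19 difference of the members at d3 in both depots. In BAT at d3 it was 10.47, 11.6 and 11.8 FPKM with siCtrl and 8.11, 9.59 and 8.45 with siH19, and the groups did not overlap. The log2 change was -0.34 (SE 0.086, adjusted p = 0.0438), just under the fold limit. With median-ratio scaling it was -0.38 and was called, as it was without siH19 replicate 2 of BAT d3, at -0.40. Over the 12 alternatives it lay between -0.40 and -0.29, with adjusted p from 0.031 to 0.14, so others lost the p threshold. In vWAT at d3 the siCtrl libraries were 12.5, 9.86 and 10.8 and the siH19 libraries 6.73, 6.78 and 8.45, again without overlap. That change was larger, -0.54 (SE 0.12), with an adjusted p of 0.31 in a comparison where 4 genes in all were called. At d0 the libraries overlapped in both depots, with changes of -0.12 (BAT) and 0.00 (vWAT). Across the 4 depot and day pairs the mean *Dnmt3a* change was -0.25 (SE 0.058, 95% CI -0.37 to -0.13, adjusted p = 0.00555), and over all alternatives run it stayed between -0.28 and -0.21 with adjusted p from 0.0018 to 0.012. This mean was below 1.3-fold, so it was not called. By the same fit *Mbd2* was higher by 0.11 (SE 0.028, adjusted p = 0.00804) and *Mbd3* lower, at -0.09 (SE 0.03, adjusted p = 0.0353). Over the alternatives the adjusted p ran from 0.0036 to 0.016 for *Mbd2*. For *Mbd3* it ran from 0.023 to 0.067, so some alternatives lost the threshold. In the mean over the 4 pairs, 0 of 9 members were called, beside 1.19% of all genes. With no minimum fold, 3 members passed the adjusted p, beside 2545 of 14694 genes. For *Mbd1* the mean change was -0.03 (95% CI -0.08 to 0.03) and for *Ctcf* -0.09 (95% CI -0.18 to 0.01).

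Of the maintenance pair, *Uhrf1* in BAT at d0 was 9.21, 12.3 and 10.9 FPKM with siH19 against 12.8, 13.1 and 16.1 with siCtrl. At d3 it was 7.16, 8.46 and 9.66 against 6.69, 6.96 and 6.69. The siH19 libraries lay below siCtrl at d0 and above it at d3, without overlap, and the adjusted p was 0.204 and 0.146. The day by siRNA term for *Uhrf1* in BAT, which asks whether the siH19 effect differed between days, was 0.61 (log2, SE 0.17) with adjusted p = 0.0533, and it passed the threshold without siH19 d0 replicate 2 (0.70) or siH19 d3 replicate 1 (0.71). *Dnmt1* differed by -0.11 and 0.02 in BAT and by -0.06 and -0.16 in vWAT (d0, d3), with no adjusted p under 0.05.

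*Trim28* in vWAT at d0 was 157, 147 and 182 FPKM with siH19 against 199, 206 and 185, a difference of -0.28 (SE 0.086, adjusted p = 0.166). At d3 the difference was 0.11 in vWAT (adjusted p = 0.456) and 0.24 in BAT (SE 0.076, adjusted p = 0.083). *Setdb1* in vWAT at d0 was 6.80, 7.07 and 6.80 against 7.96, 8.25 and 7.79, without overlap (-0.19, adjusted p = 0.203). *Ctcf* in BAT at d3 was 18.1, 19.2 and 20.1 with siCtrl and 16.5, 16.2 and 14.96 with siH19, and the groups did not overlap. Its change of -0.26 (SE 0.068, adjusted p = 0.0481) was below 1.3-fold, and its changes in the other 3 comparisons ran from -0.08 to 0.03 with adjusted p from 0.786 to 0.875. With no minimum fold, 3 members would be called in BAT at d3, *Mbd2*, *Dnmt3a* and *Ctcf*, beside 2023 of 12500 genes. For each of the 3 the adjusted p reached 0.14 among the alternatives. In the same comparison 8 of 8 tested precursor markers rose, 6 of 9 brown adipocyte markers fell, and 2 of 7 tested macrophage markers fell (summed FPKM 136 to 170 with siCtrl, 86.2 to 98.3 with siH19). The precursor list summed to 410 to 459 with siCtrl and 678 to 743 with siH19; the part of such shifts in the member changes was not tested. At d0 adipocyte markers moved as well: 8 of 10 fell with siH19 in BAT (summed FPKM 3242 to 3532 with siCtrl, 1632 to 2180 with siH19) and 7 of 10 in vWAT (4423 to 4431 against 2601 to 2934). Their part in the d0 differences of *Uhrf1*, *Trim28* and *Setdb1* was not tested.

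**Figure D2:**
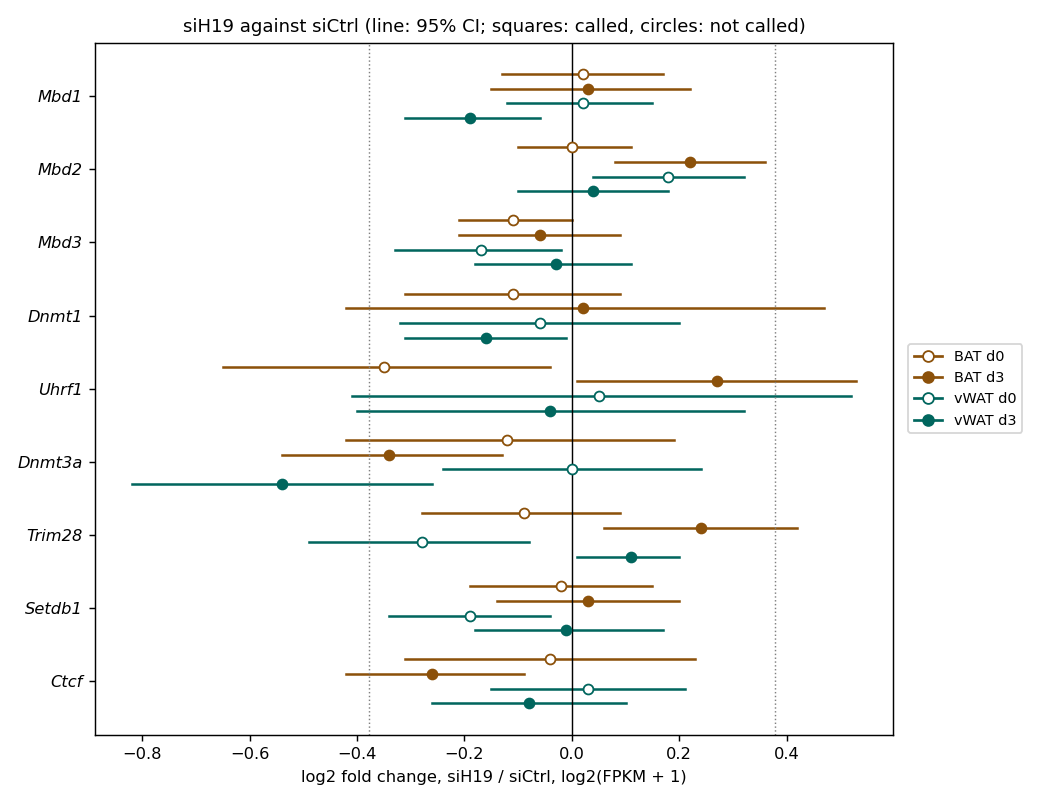
log2 fold change of siH19 against siCtrl for the 9 members in BAT and vWAT at d0 (open) and d3 (filled), with 95% CI lines; dotted lines mark 1.3-fold. None of the 36 points is a called change (all are circles), and *Dnmt3a* in vWAT d3 lies farthest from 0 at -0.54.

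The interaction terms were read for the members in the same way. In the depot by siRNA term at d3, 0 of 9 members were called, beside 10.5% of all genes; 1 had an unadjusted p under 0.05, *Mbd1* at 0.22 (adjusted p = 0.151). In the day by siRNA terms 0 of 9 were called in BAT, beside 9.06% of all genes, and 0 of 9 in vWAT, beside 1.73%. Unadjusted p was under 0.05 for 3 members in BAT, among them *Mbd2* at 0.22, which passed without siCtrl d3 replicate 3 (0.27). In vWAT it was under 0.05 for 4 members, among them *Dnmt3a* at -0.54 and *Trim28* at 0.39 (adjusted p = 0.168 and 0.107). *Trim28* passed without siH19 d0 replicate 3 (0.48). At d3, therefore, no difference between depots in the siH19 effect was called for any member; at d0 it was not tested.

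From d0 to d3, 4 of 9 members were called in BAT siCtrl (0 higher, 4 lower), beside 65.2% of all genes. In BAT siH19 it was 3 of 9 (0 higher, 3 lower), beside 60.6%. In vWAT siCtrl it was 4 of 9 (1 higher, 3 lower), beside 50.3%, and in vWAT siH19 4 of 9 (1 higher, 3 lower), beside 52.7%. The members were thus called no more often than genes at large in these comparisons. Their median log2 changes were -0.19, -0.34, -0.13 and -0.24, beside -0.10, -0.01, 0.01 and 0.03 over all genes. Libraries of d0 and d3 did not overlap for 8, 6, 6 and 8 members, beside 79.3%, 74.7%, 71.2% and 71.7% of all genes.

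*Mbd1* was the 1 member called higher, and it was called in vWAT. With siCtrl it went from 13.5, 13.0 and 13.6 FPKM at d0 to 31.2, 28.1 and 29.0 at d3. Every d3 library stood above every d0 library, by 2.201 times in the means (log2 change 1.08, SE 0.058, adjusted p = 9.05e-06). With siH19 it went from 13.6, 13.7 and 13.3 to 25.3, 25.6 and 26.3, a log2 change of 0.88 (SE 0.049, adjusted p = 9.49e-06). In BAT the means were 10.8 and 12.03 with siCtrl, and the change of 0.14 (95% CI -0.00 to 0.28) had an adjusted p of 0.0677. With siH19 in BAT it was 0.15 (adjusted p = 0.138). *Mbd1* stood higher in vWAT than in BAT on both days and with both siRNAs, without overlap of any library (tested for siCtrl only).

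*Mbd2*, the methyl-CpG binder of NuRD, was called in the other depot and in the other direction. In BAT siCtrl it fell from 74.8, 77.3 and 80.1 FPKM to 40.3, 43.2 and 46.2, to 0.559 of its d0 mean (log2 change -0.83, SE 0.06, adjusted p = 1.86e-05). In BAT siH19 it fell from 78.1, 74.8 and 79.5 to 49.7, 50.2 and 51.7 (-0.61, SE 0.045, adjusted p = 2.25e-05). In vWAT siCtrl it was 81.2, 76.0 and 75.6 at d0 and 83.3, 81.1 and 72.2 at d3, with overlap (0.02, 95% CI -0.13 to 0.17). In vWAT siH19 it went from 84.7, 85.8 and 94.0 to 79.5, 82.1 and 81.1, without overlap (-0.12, adjusted p = 0.0759). *Mbd3* in BAT siCtrl was 71.1, 69.9 and 68.2 at d0 and 87.2, 82.2 and 81.4 at d3. The libraries did not overlap, but the change of 0.26 (SE 0.043, adjusted p = 0.00136) was below 1.3-fold, as was that with siH19 (0.31, adjusted p = 0.00373).

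As shares of the summed FPKM of the 3 *Mbd* genes, *Mbd1* took 6.95%, 6.63% and 6.99% in BAT siCtrl at d0 and 8.64%, 8.51% and 8.83% at d3. In vWAT siCtrl it took 7.32%, 7.40% and 7.60% at d0 and 15.7%, 13.7% and 15.3% at d3. The *Mbd2* share in BAT siCtrl went from 49.0% ± 1.28 to 31.1% ± 2.08 and the *Mbd3* share from 44.2% ± 1.31 to 60.2% ± 2.16 (SD, n = 3). In vWAT siCtrl the *Mbd2* share was 43.1% ± 0.997 at d0 and 39.8% ± 1.92 at d3. The *Mbd3* share in vWAT siCtrl was 49.4% ± 0.856 at d0 and 45.3% ± 2.44 at d3. *Mbd3* was ahead of the other two in every d3 library of both depots. A share in such a sum falls when another member rises, so it adds no test to those above.

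**Figure D3:**
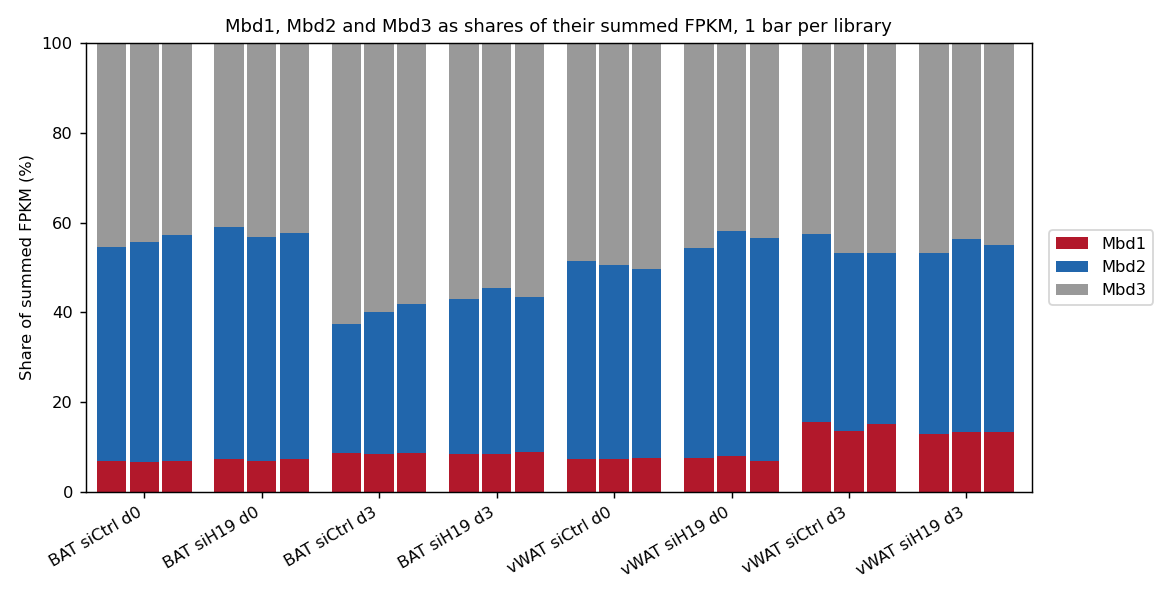
Shares of *Mbd1*, *Mbd2* and *Mbd3* in their summed FPKM (percent, axis 0 to 100), 1 bar per library, 3 per group. *Mbd1* takes 12.9% to 15.7% in the vWAT d3 bars and under 10% elsewhere, and *Mbd2* takes 28.9% to 37.0% in the BAT d3 bars.

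*Dnmt1*, the maintenance methyltransferase, fell in all 4 day comparisons. In BAT siCtrl it went from 14.6, 15.6 and 16.6 FPKM to 9.97, 7.37 and 8.13 (log2 change -0.81, SE 0.11, adjusted p = 0.000529). In BAT siH19 it went from 13.7, 13.7 and 15.9 to 11.5, 7.66 and 7.11 (-0.68, adjusted p = 0.00979), and in vWAT by -0.51 with siCtrl and -0.60 with siH19 (adjusted p = 0.00268 and 0.000903). No d3 library overlapped a d0 library in any of the 4. *Uhrf1* went from 12.8, 13.1 and 16.1 to 6.69, 6.96 and 6.69 in BAT siCtrl, 0.485 of its d0 mean (-0.94, SE 0.095, adjusted p = 0.000108). In BAT siH19 it went from 9.21, 12.3 and 10.9 to 7.16, 8.46 and 9.66. These libraries overlapped, and the change of -0.32 had an adjusted p of 0.0692; it was called without siH19 d0 replicate 1 (-0.43) or siH19 d3 replicate 3 (-0.42). In vWAT siH19 *Uhrf1* was 14.5, 12.9 and 11.5 at d0 and 7.80, 6.37 and 9.88 at d3, and fell by 0.64 on the log2 scale (adjusted p = 0.00944). In vWAT siCtrl it was 12.1, 16.7 and 9.35 at d0 and 7.31, 8.91 and 8.32 at d3 (-0.55, adjusted p = 0.042). That call was lost without d0 replicate 1 or 2 or without any of the d3 replicates, with values of -0.60 to -0.35 and adjusted p of 0.063 to 0.12.

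Genes of replication and division, with which *Dnmt1* and *Uhrf1* are known to be expressed, were read beside them. Of 36 tested in BAT siCtrl, 21 fell and 3 rose (66.7% called, near the 65.2% of all genes), with a median log2 change of -0.45 beside -0.10 for all genes. Among them were the helicase subunits *Mcm3* (16.6 to 6.91 FPKM) and *Mcm6* (26.0 to 13.2). In BAT siH19 9 fell and 7 rose (44.4%, below the 60.6% of all genes), the risers including *Ccne1* and *Tk1*, which act at the start of and in S phase. In vWAT 12 fell and 2 rose with siCtrl, and 13 fell and 2 rose with siH19 (38.9% and 41.7%, below the 50.3% and 52.7% of all genes). Median log2 changes of the list were -0.16 (BAT siH19), -0.26 (vWAT siCtrl) and -0.10 (vWAT siH19), beside -0.01, 0.01 and 0.03 for all genes. *Pcna*, the replication clamp that Dnmt1 binds, fell in each of the 4, by 0.83, 0.43, 0.60 and 0.48 on the log2 scale (BAT siCtrl, BAT siH19, vWAT siCtrl, vWAT siH19). The part of these shifts in the *Dnmt1* and *Uhrf1* values was not tested.

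*Dnmt3a* was called in 1 day comparison, vWAT siH19, where it went from 14.7, 16.1 and 12.2 FPKM to 6.73, 6.78 and 8.45 (-0.88, SE 0.13, adjusted p = 0.000839). In vWAT siCtrl it went from 14.5, 14.1 and 14.2 to 12.5, 9.86 and 10.8. These did not overlap either, with a change of -0.34 (adjusted p = 0.0135) below 1.3-fold that was called without d3 replicate 1 (-0.43). In BAT it was -0.11 with siCtrl (adjusted p = 0.148) and -0.34 with siH19 (adjusted p = 0.0662; called without d0 replicate 3 at -0.47). *Dnmt3l*, a catalytically inactive cofactor of Dnmt3a, went from 14.1 to 5.62 in vWAT siCtrl and from 10.3 to 6.41 in BAT siCtrl, and both changes were called.

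*Trim28*, the most abundant member at d0, fell in BAT siCtrl from 139, 128 and 128 FPKM to 63.7, 69.2 and 76.8 (0.531 of the d0 mean; log2 change -0.91, SE 0.075, adjusted p = 3.79e-05). In BAT siH19 it fell from 126, 134 and 110.5 to 78.4, 82.8 and 86.2 (-0.58, SE 0.079, adjusted p = 0.000544). In vWAT siCtrl it fell from 199, 206 and 185 to 125, 122 and 129 (-0.65, SE 0.049, adjusted p = 4.17e-05). In vWAT siH19 it went from 157, 147 and 182 to 139.9, 130.5 and 135, without overlap and with a change of -0.25 (adjusted p = 0.0297) below 1.3-fold. Its histone methyltransferase partner *Setdb1* had changes between -0.19 and 0.06 in the 4 comparisons, with no adjusted p under 0.05. *Ctcf* differences ran from -0.38 (BAT siH19, adjusted p = 0.0034) to -0.13, with an adjusted p of 0.0481 in vWAT siH19 (-0.24). The BAT siH19 change was at the fold limit, and it was called with a pseudocount of 0.1 (-0.40), with median-ratio scaling, and without d0 replicate 1 (-0.44), d3 replicate 1 (-0.40) or d3 replicate 2 (-0.39).

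**Figure D4:**
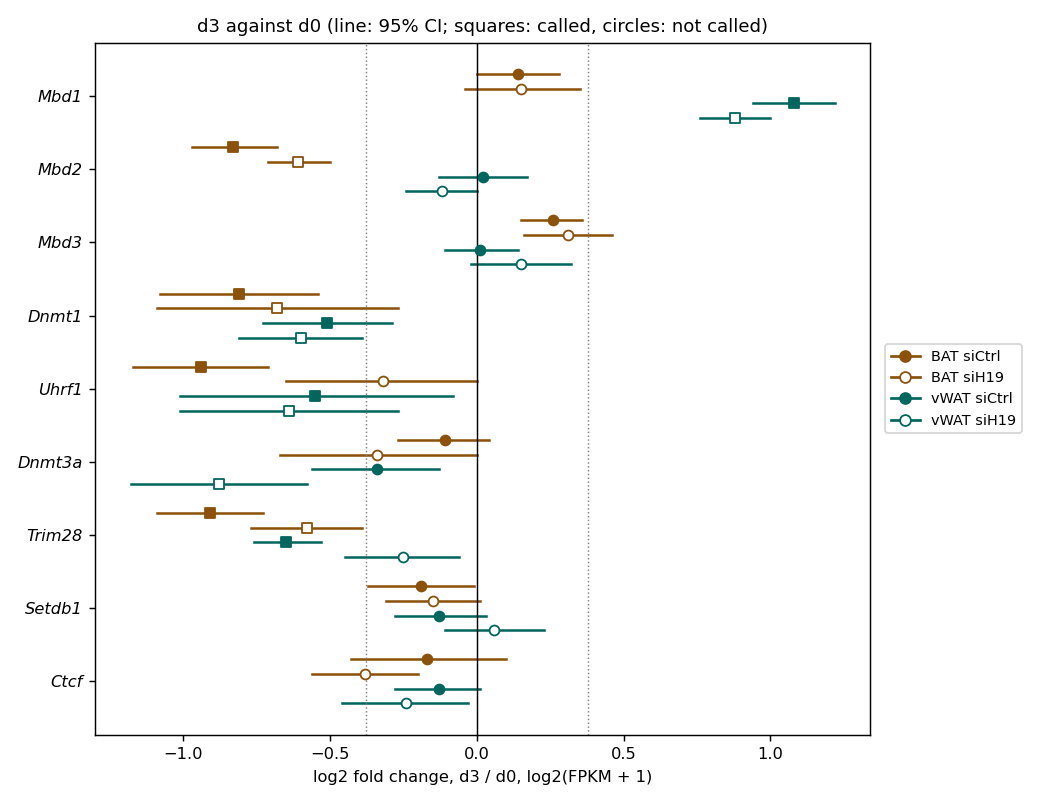
log2 fold change of d3 against d0 for the 9 members in BAT (brown) and vWAT (green), siCtrl filled and siH19 open, with 95% CI lines; squares are called changes and dotted lines mark 1.3-fold. The *Mbd1* squares lie at 1.08 and 0.88 in vWAT, the *Mbd2* squares at -0.83 and -0.61 in BAT, and *Dnmt1* has squares below 0 in all 4.

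The depots were then compared in siCtrl cells. At d0, 1 of 9 members was called (0 higher in BAT, 1 lower), beside 31.2% of all genes. This was *Trim28*, at 139, 128 and 128 FPKM in BAT and 199, 206 and 185 in vWAT (-0.58, SE 0.055, adjusted p = 0.000257). *Mbd3* was at 0.784 of its vWAT mean (-0.35, adjusted p = 0.000447) and *Mbd1* at 0.809 (-0.28, adjusted p = 0.00696), both below 1.3-fold. Over the 11 alternatives *Mbd3* lay between -0.36 and -0.22 (adjusted p up to 0.0044). *Mbd1* lay between -0.30 and -0.16, with adjusted p up to 0.052. *Mbd2* was at 77.4 in BAT and 77.6 in vWAT (95% CI of the log2 difference -0.12 to 0.11). At d3, 3 of 9 were called, all lower in BAT, beside 48.6% of all genes. *Mbd1* was at 0.408 of the vWAT mean (-1.22, SE 0.06, adjusted p = 5.95e-06), *Mbd2* at 0.548 (-0.85, SE 0.073, adjusted p = 7.59e-05) and *Trim28* at 0.557 (-0.84, SE 0.07, adjusted p = 6.52e-05). The libraries of the depots did not overlap for these 3, which were among 6 such members, beside 70.4% of all genes. The median over all genes was itself -0.13 at d0 and -0.16 at d3, and median-ratio scaling moved it to -0.02 and -0.04. With that scaling *Mbd1*, *Mbd2* and *Trim28* were at -1.09, -0.72 and -0.70 at d3, all still called, and *Trim28* was at -0.45 at d0.

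The difference itself was tested as a depot by day term in siCtrl, in which 4 of 9 members were called (1 higher, 3 lower), beside 53.0% of all genes. The day change of *Mbd1* was lower in BAT than in vWAT by 0.94 (log2, SE 0.072, adjusted p = 1.29e-06) and that of *Mbd2* lower by 0.85 (SE 0.09, adjusted p = 1.62e-05). These values lay between -0.98 and -0.86 for *Mbd1* and between -0.91 and -0.77 for *Mbd2* over the 17 alternatives, all of them called. *Mbd3* differed by 0.25 (SE 0.067, adjusted p = 0.00995). *Trim28* differed by -0.26 (SE 0.094, adjusted p = 0.0375), but this call was lost in 11 of 17 alternatives, among them median-ratio scaling (-0.18, adjusted p = 0.14) and leaving out any of 7 single libraries (adjusted p 0.055 to 0.087): BAT d0 replicate 1, BAT d3 replicates 1 and 2, vWAT d0 replicates 1 and 3, and vWAT d3 replicates 1 and 3. *Dnmt1* (-0.31, adjusted p = 0.114), *Uhrf1* (-0.39, adjusted p = 0.185) and *Dnmt3a* (0.23, adjusted p = 0.1) were not called. They were called without BAT d3 replicate 1 (*Dnmt1*, -0.41), without vWAT d0 replicate 2 (*Uhrf1*, -0.59) and without vWAT d3 replicate 1 (*Dnmt3a*, 0.31) or with median-ratio scaling (0.30). *Setdb1* and *Ctcf* were at -0.07 and -0.03.

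Other cell types differed with depot and day as well. The macrophage list summed to 331 to 371 FPKM at d0 and 511 to 558 at d3 in vWAT siCtrl, where 3 of 10 tested genes rose and 4 fell, and to 152 to 190 and 136 to 170 in BAT siCtrl, where 7 of 9 fell. The mesothelial list summed to 212 to 244 at d0 and 55.8 to 69.2 at d3 in vWAT siCtrl, with 6 of 7 tested genes lower at d3, and to 5.92 or less in BAT siCtrl. In BAT siCtrl at d0 *Upk3b*, *Upk1b*, *Krt8* and *Muc16* were listed at 0. The precursor list fell from 1261 to 1395 to between 410 and 459 in BAT siCtrl and was 679 to 734 and 807 to 890 in vWAT siCtrl. Myogenic lineage genes summed to 72.4 to 119 at d0 in BAT siCtrl and 31.2 to 40.4 in vWAT siCtrl, where *Myf5*, *Myog* and *Myf6* were listed at 0. Endothelial genes summed to at most 19.1 in every group. The part of these cell types in the depot differences of *Mbd1*, *Mbd2* and *Trim28* was not tested.

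The remaining genes of the pathway were read as 6 lists. From d0 to d3 in BAT siCtrl 27.3% to 66.7% of the tested genes of a list were called and in vWAT siCtrl 11.1% to 50%, beside 65.2% and 50.3% of all genes, so that their counts were near or below those of genes at large. Of 8 genes listed as further methyl-CpG readers, 3 rose and 0 fell from d0 to d3 in vWAT siCtrl. These were *Zbtb33* (Kaiso, 8.38 to 13.6 FPKM), *Mbd4*, a repair glycosylase (1.13 to 2.25), and *Mbd6* (22.9 to 32.5). Whether each gene of the list binds methylated CpG was not tested. In BAT siCtrl 1 rose, *Mbd6* (14.8 to 32.2), and 2 fell, *Zbtb4* and *Zbtb33* (7.89 to 5.75). The depot by day term was called for *Zbtb33* (-1.03, SE 0.13), *Mbd4* (-0.98, SE 0.16), *Zbtb4* (-0.58) and *Mbd6* (0.58). Of 11 tested imprint keepers and H3K9 factors, 3 fell in BAT siCtrl and 2 in vWAT siCtrl. *Zfp57*, the KRAB zinc finger protein that brings Trim28 to imprints, went from 14.7 to 1.60 in BAT siCtrl (-2.61, SE 0.23, adjusted p = 4.7e-05) and from 27.6 to 7.50 in vWAT siCtrl (-1.75, SE 0.093, adjusted p = 8.7e-06). It fell with siH19 too, by 2.21 and 1.69. *Suv39h2* and the heterochromatin protein gene *Cbx3* were the other fallers in BAT.

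Of 12 NuRD genes, 2 rose and 3 fell in BAT siCtrl. *Hdac1* (38.3 to 63.9) and *Mta3* rose, and the histone chaperone *Rbbp7* (178 to 105) and *Gatad2a* (36.8 to 23.0), which links Mbd2 or Mbd3 to the remodeller, were among the fallers. In vWAT siCtrl 2 rose, *Chd3* (34.2 to 58.9) and *Mta3*, and 1 fell, *Gatad2a* (35.6 to 24.2). Of 9 cohesin genes, which work with Ctcf in looping, 1 rose and 3 fell in BAT siCtrl and 1 fell in vWAT siCtrl, *Smc3* (18.2 to 13.5). Of 6 tested demethylation genes, *Idh1* rose and *Gadd45b* fell in both depots with siCtrl; *Gadd45b* went from 41.7 to 5.25 in BAT. Of 7 tested writers and cofactors, *Mat2a*, which makes S-adenosylmethionine, rose in BAT siCtrl (126 to 235), and its depot by day term was 1.21 (SE 0.087, adjusted p = 8.7e-07). With siH19 these 6 lists gave 2 called genes in BAT at d3, *Dnmt3l* (6.41 to 9.15) and *Gadd45b* (5.25 to 8.91), both higher. These were 1 of 7 tested writers and cofactors and 1 of 6 tested demethylation genes. The further lists held 0, beside 8.57% of all genes. In vWAT at d0 the lists gave 1, *Idh1* (173 to 122), beside 1.53% of all genes. They gave 0 in BAT at d0 and in vWAT at d3, beside 1.94% and 0.0305%.

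The genes whose pattern was most like each member were found by Pearson's r of log2(FPKM + 1) over the 24 libraries, among 11492 named genes. These values are descriptions, since the libraries share groups. *Mbd1* was nearest to *Crocc2* and *Mpp6* (r = 0.989 for both) and *A2m* (0.981). *Mbd2* was nearest to *Leprot* (0.983), *H2-M3* (0.982) and *Slc9a3r2* (0.979), and *Trim28* to *Tsc22d1* (0.970), *Plat* and *Golga7* (0.968 for both). *Dnmt1* was nearest to *Eml1* (0.943), *Vgll4* (0.942) and *Foxp1* (0.937), and *Uhrf1* to *Tmf1* (0.886), *Zfp202* (0.884) and *Anp32b* (0.877). *Mbd3* was nearest to *Tst* (0.918), *Cpsf1* (0.912) and *Pde1a* (0.904), and *Dnmt3a* to *Klhl18* (0.879), *Lig3* (0.809) and *Ttc19* (0.807). For *Ctcf* these were *Lat2* (0.879), *Tspan18* (0.849) and *Cd300c2* (0.836), and for *Setdb1*, the member with the narrowest range, *Ccnf* (0.837), *Pnn* (0.829) and *Ckap2l* (0.823). After the 8 group means were taken out, the nearest genes were others for every member, for example *Ppm1h* for *Mbd1* (0.817), *Yif1a* for *Mbd2* (0.847), *Tcf7l1* for *Dnmt1* (0.902) and *Tesk1* for *Trim28* (0.879).

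Of the nearest expressed genes on either side of *Mbd1*, *Cxxc1* lies 46781 bases before it on the same strand and encodes a protein that binds unmethylated CpG. *Myo5b*, a myosin gene, lies 158251 bases after it, also on the same strand. These neighbours were chosen after their values were seen. *Cxxc1* was 21.3, 22.1 and 20.1 FPKM at d0 and 33.2, 33.3 and 31.25 at d3 in vWAT siCtrl (log2 change 0.60, SE 0.056, adjusted p = 0.00011). In BAT siCtrl it was 17.9, 15.8 and 16.3 at d0 and 17.9, 19.2 and 18.8 at d3 (0.15, adjusted p = 0.068). *Myo5b* went the other way, from a mean of 2.36 at d0 to 0.612 at d3 in vWAT siCtrl (-1.06, SE 0.11, adjusted p = 0.00022), and was not called in vWAT siH19 (-0.27, adjusted p = 0.2). *Myo5b* lay near the filter of 1 FPKM, and any link of these neighbours to the *Mbd1* values was not tested.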

How the data were processed

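RNA-Seq of 24 libraries (8 groups of depot, siRNA and day, n = 3) was deposited as a table of FPKM values per gene, made by the authors with TopHat2 (2.0.10) and Cufflinks (2.2.1, per the submitters' processing notes; the study's methods name another Cufflinks version and the QuickNGS pipeline) on GRCm38. The table names no unit, and FPKM is taken from the methods. It holds no counts, so depth per library is unknown and no count model was used. Gene symbols come from the table for 20695 genes and by Ensembl ID for 28503. log2(FPKM + 1) values were fitted with limma (3.58.1, R 4.3.3; trended moderated variance, two-sided) on the libraries of each comparison, for genes with FPKM of at least 1 in at least 3 libraries. Calls needed a Benjamini-Hochberg adjusted p under 0.05 over all genes tested and at least 1.3-fold (no minimum fold for interactions); the fit was tested on simulated data. All 9 members passed the filter in all 15 comparisons and all are named, with *H19*, for each further list up to 4 called genes with the largest change, and the 3 genes most correlated with each member. A further gene of the rule is not reported here. Members and lists were chosen with earlier results of these data known. Replicate numbers were checked for pairing by the correlation of same-numbered deviations from group means, and no comparison had every correlation over 0.1. Alternatives were a pseudocount of 0.1, no filter, median-ratio scaling, no minimum fold, all libraries fitted together, a replicate block and leaving out each library.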

Additional observations from a re-analysis of the deposited data

Results flagged for a closer look

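Of the interaction terms, 5 results stood out because the effect of a contrast differed between groups by its own test. The d0 to d3 change in siCtrl cells differed between depots (BAT minus vWAT, log2) for *Mbd1* (-0.94), *Mbd2* (-0.85), *Mbd3* (0.25) and *Trim28* (-0.26). For *Trim28* the depots moved in the same direction, and the call depended on the processing. 53.0% of all genes had such a difference. The siH19 effect on *H19* itself in BAT differed between days by 1.99 (log2, SE 0.29, adjusted p = 0.00282). *H19* in the BAT siH19 cells went from a mean of 4.36 FPKM at d0 to 13.7 at d3, while it went from 130.3 to 89.8 with siCtrl, so the member values with siH19 at d3 come from cells with more *H19* than those at d0.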

How the results depend on the processing

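Of the member log2 fold changes recomputed under the alternatives, 1882 kept their direction or were uncalled both times, 36 gained a call and 17 lost one; 0 called changes reversed. For siH19 in BAT at d3, 3 members were called with no minimum fold, beside 2023 of 12500 genes, against 0. With median-ratio scaling it was 1, beside 1039 genes, and leaving out a library gave 0 to 1. With no minimum fold, 3 members were called in the mean over the 4 pairs (0 otherwise), beside 2545 of 14694 genes. By the same rule it was 5 from d0 to d3 in BAT siH19 (3 otherwise, 3 to 5 leaving out a library), beside 9222 of 12962. For BAT against vWAT at d0 it was 4 (1 otherwise), beside 6386 of 13139. The day by siRNA terms gave 0 to 1 in BAT and 0 to 1 in vWAT leaving out a library. The replicate block gave 1 in BAT (*Uhrf1*, adjusted p = 0.036), and lost *Trim28* in the depot by day term; it could not be fitted for BAT against vWAT, where a block within each depot leaves no residual degrees of freedom, and since the numbers did not pair the libraries it says nothing of a weaker effect. Counts over all genes moved more. For siH19 in BAT d0, 245 genes were called, 2 with the replicate block, 518 with all 24 libraries fitted together and 4 to 74 leaving out a library. In vWAT d0 it was 200, with 2, 385 and 37 to 122, and in vWAT d3 4, with 0, 20 and 1 to 5. In BAT d3 it was 1071, 2023 with no minimum fold and 631 to 916 leaving out a library. For the mean over pairs it was 175 and 2545 with no minimum fold, and for BAT against vWAT at d0 4096 and 6386. Leaving out a library gave 889 to 1432 against 1451 (depot by siRNA), 801 to 1091 against 1230 (day by siRNA, BAT) and 127 to 241 against 241 (vWAT). Without a filter on low values siH19 called 35 genes in BAT d0 and 65 in vWAT d0. Median-ratio scaling moved the share of calls that were higher from 74.6% to 60.5% (siH19, BAT d3), 21.5% to 32.3% (siH19, vWAT d0), 32.8% to 48.0% and 33.9% to 45.3% (BAT against vWAT, d0 and d3), 66.6% to 45.6% (depot by siRNA) and 86.0% to 61.1% (day by siRNA, BAT). With depth unknown, what it limits could not be stated.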
